A study of Drosophila melanogaster with 3 samples.

Results

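Peaks of the transcription factor Xbp1 that lie at divergent promoter pairs, where 2 protein-coding genes start back to back and are read in opposite directions, are described here. The assay was ChIP-seq on whole Drosophila melanogaster embryos, aged 0 to 24 h, with male and female embryos pooled. The embryos came from a single transgenic line that stably expresses Xbp1 fused at its C terminus to green fluorescent protein, and chromatin sonicated to 200 to 800 bp was immunoprecipitated through the tag with an anti-GFP antibody. All 3 samples are biological replicates of this 1 group, with no second condition, and no sample without the tag was analysed here. A peak was a member when its summit had, within 500 bp, annotated starts of at least 2 different protein-coding genes, with the minus-strand start to the left of the plus-strand start. Of the 7291 peaks in the list that the authors thresholded by the irreproducible discovery rate, 1286 (17.6%) met the rule. They are set beside the 2127 promoter peaks with the starts of exactly 1 protein-coding gene within 500 bp, called single-gene promoter peaks, and beside the 3813 distal peaks with none. The remaining 65 promoter peaks had several genes but no divergent arrangement.

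Xbp1 is a bZIP transcription factor that acts in the unfolded protein response (UPR), through which cells raise the capacity of the endoplasmic reticulum (ER) to fold, modify and export proteins. The mRNA for its active form arises when the stress sensor Ire1 cuts out an intron, and the mammalian protein binds a sequence known as the UPR element. In a divergent pair a short stretch of sequence serves as the promoter region of both genes. Such pairs are common in the compact Drosophila genome, above all among genes that most cells use, whose promoters often carry the DNA replication-related element (DRE), the core site of the insulator protein BEAF-32, or motif 1, which binds the factor M1BP.

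The stretches between the starts are printed for 5 pairs, 4 with peaks among the 10 strongest and that of alphaCOP, because the summit lay inside each of them. They are read on the plus strand, from the base after the start of the minus-strand gene to the base before the start of the plus-strand gene, and capitals mark matches to the BEAF-32 core CGATA or to the DRE, which is TATCGATA and contains that core, on either strand. The sequences are from the RefSeq Release 6 genome (dm6). The pair of Herp, an ER membrane protein of ER-associated degradation (ERAD), and r2d2, a double-stranded RNA binding partner of Dicer-2, spans chr2L:7800059-7800146 with the summit at base 72. The pair of Art3, an arginine methyltransferase, and mRpS10, a protein of the mitochondrial small ribosomal subunit, spans chr3R:15229409-15229664 with the summit at base 114. The pair of Tcs5 and CHMP2B, a component of the ESCRT-III membrane remodelling complex, spans chr3L:5139396-5139618 with the summit at base 105. The pair of Atat, an alpha-tubulin acetyltransferase, and Shc, an adaptor of receptor tyrosine kinases, spans chr3L:9426759-9427009 with the summit at base 125. The pair of alphaCOP, a subunit of the COPI coat, and CG13919 spans chr3L:1645200-1645466 with the summit at base 97.
Herp/r2d2: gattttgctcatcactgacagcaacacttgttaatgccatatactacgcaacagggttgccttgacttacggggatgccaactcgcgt
Art3/mRpS10: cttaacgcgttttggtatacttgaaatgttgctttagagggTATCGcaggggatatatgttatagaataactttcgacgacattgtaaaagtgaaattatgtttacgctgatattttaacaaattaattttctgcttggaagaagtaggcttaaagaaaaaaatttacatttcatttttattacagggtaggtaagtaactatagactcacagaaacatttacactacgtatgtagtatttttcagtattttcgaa
Tcs5/CHMP2B: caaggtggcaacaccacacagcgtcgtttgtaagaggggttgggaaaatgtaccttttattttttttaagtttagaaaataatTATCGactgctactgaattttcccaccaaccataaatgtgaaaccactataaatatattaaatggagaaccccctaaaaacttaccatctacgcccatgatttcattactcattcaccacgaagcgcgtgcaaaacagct
Atat/Shc: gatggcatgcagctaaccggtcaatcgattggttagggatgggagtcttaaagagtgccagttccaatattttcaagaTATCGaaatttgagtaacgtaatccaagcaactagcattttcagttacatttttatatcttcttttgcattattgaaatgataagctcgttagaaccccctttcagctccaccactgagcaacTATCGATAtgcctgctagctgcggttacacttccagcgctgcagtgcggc
alphaCOP/CG13919: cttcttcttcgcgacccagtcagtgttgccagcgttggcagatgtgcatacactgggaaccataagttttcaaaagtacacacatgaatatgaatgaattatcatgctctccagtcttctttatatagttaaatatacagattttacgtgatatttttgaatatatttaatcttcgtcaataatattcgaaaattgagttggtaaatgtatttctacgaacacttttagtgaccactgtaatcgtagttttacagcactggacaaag

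Sequence around the summits that matched an unfolded protein response motif is printed next, 30 bases each on the plus strand, since these were the few divergent members that held one. The UPR element was searched as TGACGTGG on both strands within 50 bp of the summit, and its match is in capitals. It was found at 4 of the 1286 peaks, those of SmB/KdelR (chr2L:10426893-10426922), Ostgamma/Mettl14 (chr2L:8307952-8307981), nero/CG1910 (chr3R:31747575-31747604) and CG17598/CG17600 (chrX:22540150-22540179). The longer ER stress element of mammalian UPR genes, a CCAAT and a CCACG with 9 bases between them, was found at 1 peak, that of crq/shv (chr2L:453104-453133), where capitals mark its 2 ends.
SmB/KdelR: ttattcatcagCCACGTCAttgtttatgcc
Ostgamma/Mettl14: ccaccgaaaagTGACGTGGccacaaacaaa
nero/CG1910: agtaatcgataTGACGTGGctatcgatgga
CG17598/CG17600: ctcactcccacTGACGTGGcgagcttgctt
crq/shv: gccaaCCAATcagcgcagaCCACGactcac

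Of these 5 motif sites, 3 lay in a pair with a gene of the secretory lists, beside 64 of all 1286 divergent peaks. KdelR is the receptor that returns escaped ER residents from the Golgi, Ostgamma is a subunit of the oligosaccharyltransferase that attaches glycans to nascent proteins, and shv is a J-domain co-chaperone of the ER. Their partners SmB, a core protein of spliceosomal snRNPs, Mettl14, a subunit of the mRNA m6A methyltransferase, and crq, a scavenger receptor, belong to no list used here. The summit lay 8 bp from the start of KdelR and 268 bp from that of SmB, 19 bp from shv and 103 bp from crq, and 214 bp from Ostgamma and 449 bp from Mettl14. In these 3 pairs the summit was thus nearer the secretory gene, and at each of them it lay outside the stretch between the starts, on the side of that gene. In nero/CG1910, where nero encodes deoxyhypusine hydroxylase, the summit lay between the starts, 50 bp and 35 bp from them.

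The files held peaks and no reads, so depth is unknown, and the exact 95% intervals given (Clopper-Pearson) cover counting error over peaks, pairs or genes alone. Signal is the value that the authors' peak caller gave each peak, on a scale that is not stated and that differs between lists, so it is compared within a list only. Each replicate's own list was limited to its 7291 strongest peaks for the spread between replicates. It then held 1244 divergent peaks in replicate 1, 1337 in replicate 2 and 1188 in replicate 3, a mean of 1256 ± 75.3 (SD, n = 3). Replicate 2 stood apart from the others in base composition: the median GC content within 50 bp of its divergent summits was 36.6%, against 33.7% in replicate 1 and 33.7% in replicate 3. In whole embryos of mixed age, binding in few cells and weak binding in many cannot be told apart.

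The 1286 members lay at 1167 distinct pairs with 2329 genes, each peak being assigned to the pair of starts closest together. Most peaks (1223) had exactly 2 genes within 500 bp, and 63 had 3 or more. The highest number, 10, was at a single peak of signal 1717 whose entries are pre-mod(mdg4) segments, 23 of which the annotation counts as protein-coding genes because mod(mdg4) mRNAs are assembled by trans-splicing. At 118 pairs more than 1 peak was listed, with at most 3 at a pair. Some of these are summits called in the same interval, as at Wdr37/koko and Dad1/CG13384. The count is therefore not one of separate binding sites. Of all members, 96 overlapped another thresholded peak of higher signal.

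Summits at divergent pairs gathered in the stretch between the 2 starts. Of the 1286 summits, 1029 (80.0%, interval 77.7 to 82.2%) lay strictly between them, whereas 122 lay on the side of the minus-strand gene and 135 on the side of the plus-strand gene. The rule itself confines a summit to 500 bp from both starts, and on average the stretch between the starts made up 44.4% of the positions allowed. The share between the starts was 78.8% ± 2.42 (SD, n = 3) over the replicate lists, and the allowed share 44.0% ± 2.65 (SD, n = 3). The distance between the starts had a median of 281 bp, with quartiles of 160 and 394 bp and extremes of 1 and 864 bp.

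How often the summit lay between the starts depended on how far apart these were. With starts 1 to 100 bp apart 76 of 211 summits (36.0%) did so, where 6.18% of the allowed positions lie between the starts, and with starts 101 to 200 bp apart 97 of 160 did (60.6%, allowed 16.9%). From 201 to 300 bp the share was 88.3% of 351 peaks (allowed 34.3%), from 301 to 400 bp 95.1% of 263 (allowed 53.4%) and from 401 to 500 bp 97.0% of 164 (allowed 81.4%). Above 500 bp the rule leaves no other place. In each bin up to 500 bp the share observed was above the share of allowed positions, which stands for summits spread evenly over them. Single-gene summits were not spread evenly either, with 83.6% of them upstream of the nearest start.

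**Figure D1:**
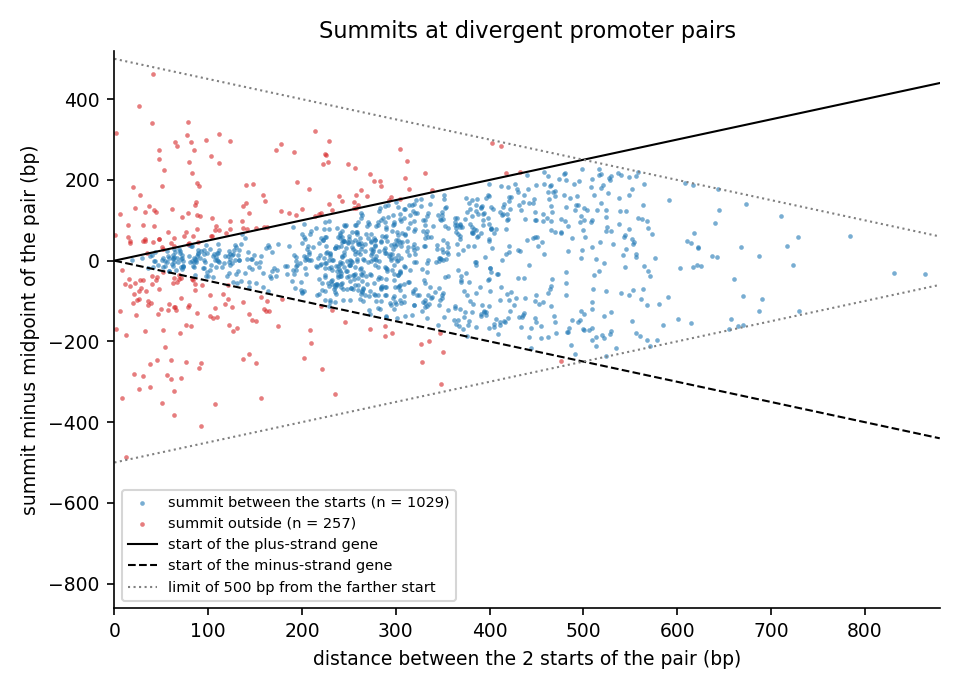
Position of the summit relative to the midpoint of its pair (bp, y axis) against the distance between the 2 starts (bp, x axis) for the 1286 divergent peaks of the thresholded list. Lines mark the 2 starts and the limits set by the rule, blue points are the 1029 summits between the starts and red points the 257 outside, most of which belong to pairs with starts under 200 bp apart.

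A divergent summit lay a median of 78.0 bp from the nearer of the 2 starts of its pair. At single-gene promoter peaks the median distance to the nearest annotated start was 136 bp. Over the replicates these medians were 77.7 ± 10.1 bp at divergent pairs and 138 ± 34.4 bp at single-gene promoters (SD, n = 3 each); a pair offers 2 starts to be near to. Relative to the nearest annotated protein-coding start, whether or not of the assigned pair, 85.1% of divergent summits and 83.6% of single-gene summits lay upstream. That gap was smaller than the SD over replicates of 1.97 points for divergent and 4.64 points for single-gene peaks. The 2 narrowest pairs were Atg6/Pisd, the autophagy gene Beclin and phosphatidylserine decarboxylase, with starts 1 bp apart and signal 216, and dpa/didum, the replicative helicase subunit Mcm4 and myosin V, with starts 2 bp apart and signal 797. At the widest pairs, mRNA-cap/CG32599, with the mRNA capping enzyme, and CG17364/CtsK1, with a cathepsin, the starts were 864 and 831 bp apart and the signals were 199 and 202.

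The limit of 500 bp passed through a continuum of positions. The 3 members closest to it were Syx16/HERC2, Gnpat/CG5112 and Nbr/Noc2, whose farther starts lay 499, 498 and 498 bp from the summit and whose signals were 334, 495 and 404. The 3 peaks just beyond were CG31650/CG33995, TTLL5/vig2 and mRpS25/nmdyn-D6, at 501, 501 and 506 bp with signals of 408, 254 and 341.

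Signal was higher at divergent pairs than at single-gene promoters in each replicate. The median was 183, 134 and 106 at divergent peaks of replicates 1, 2 and 3, against 145, 112 and 84.0 at single-gene promoter peaks. The ratio of medians was 1.26, 1.20 and 1.26 in these replicates (mean 1.24 ± 0.0356, SD, n = 3; two-sided exact sign-flip permutation test on log2 ratios, p = 0.25). With 3 replicates, 0.25 is the smallest p this test can give, so it cannot pass 0.05. In the thresholded list the medians were 411 at divergent pairs, 333 at single-gene promoters and 291 at distal sites, and divergent signals spanned 172 to 5659. The quartiles of the classes overlapped widely (258 to 696 at divergent pairs, 234 to 572 at single-gene promoters). Within the divergent class, summits between the starts and outside them had medians of 409 and 419.

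Divergent pairs took a larger part of the top of the list than of its tail. They made up 31.0% of the 100 strongest thresholded peaks (interval 22.1 to 41.0%), 28.2% of ranks 101 to 500 and 27.2% of ranks 501 to 1000. The share was 22.8% of ranks 1001 to 2000, 17.9% of ranks 2001 to 4000 and 12.8% of ranks 4001 to 7291 (interval 11.6 to 14.0%). In the replicate lists the share was 31.3% ± 3.79 of the first 100 and 11.9% ± 1.95 of the last 3291 (SD, n = 3 each). Single-gene promoters varied less, from 37.0% of the first 100 to 27.3% of the tail. The pairs with starts 201 to 300 bp apart had the highest median signal of the bins, 506, against 393 at 1 to 100 bp and 348 at 401 to 500 bp.

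**Figure D2:**
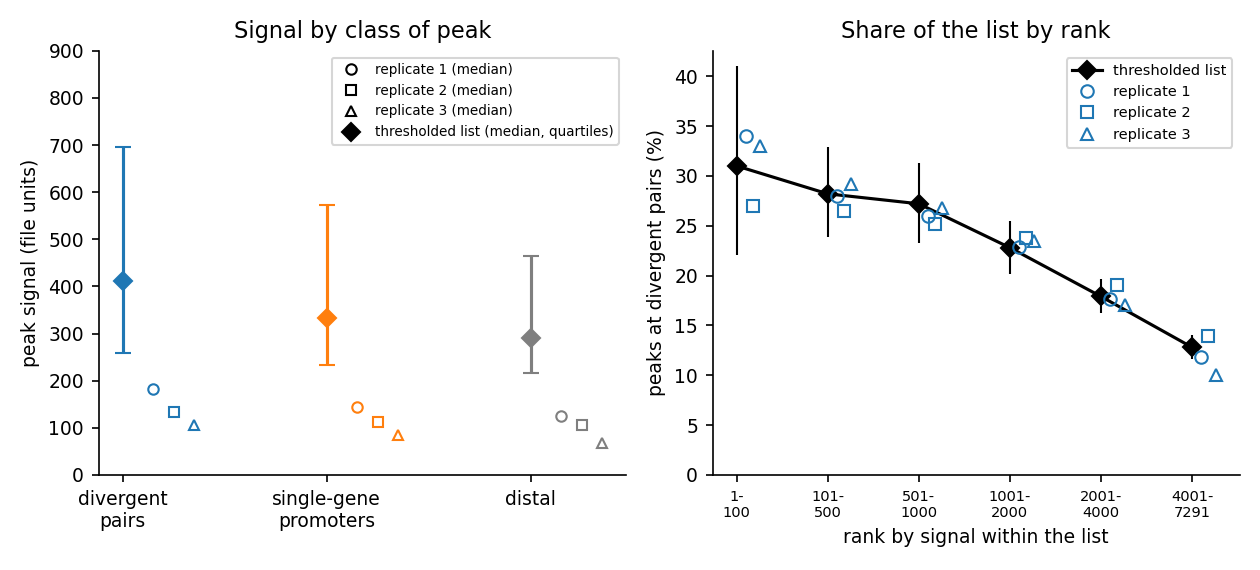
Left, median peak signal (file units, y axis) of divergent, single-gene and distal peaks, with quartiles for the thresholded list and open symbols for the 3 replicates, whose scales differ. Right, share of peaks at divergent pairs (%, y axis) by rank of signal (x axis), with exact 95% intervals for the thresholded list; it is 31.0% of the 100 strongest peaks and 12.8% of ranks 4001 to 7291.

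Genes in divergent pairs carried promoter peaks more often than genes outside them. The annotation holds 1995 pairs of protein-coding genes with starts at most 500 bp apart, made of 3815 genes. Of these genes, 57.1%, 61.7% and 53.5% had a promoter peak in replicates 1, 2 and 3, against 19.2%, 21.9% and 18.3% of the other 10153 protein-coding genes. The ratio of these shares was 2.90 ± 0.0754 (SD, n = 3; two-sided exact sign-flip permutation test, p = 0.25, the smallest possible). In the thresholded list 2233 of the 3815 genes (58.5%) and 2009 of the 10153 (19.8%) had one, a ratio of 2.96, where 30.4% of all 13968 protein-coding genes did. A peak at a pair counts for both genes, and genes in pairs had on average 1.46 annotated starts, against 1.38 for other genes.

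A count with 1 window for each pair gave the same order. A thresholded summit lay within 250 bp of the midpoint of 1086 of the 1995 pairs (54.4%). It lay within 250 bp of a start of 1203 of 8916 genes (13.5%) outside any pair with starts up to 1000 bp apart. The pair window was centred between the starts and the gene window on a start, although 83.6% of single-gene summits lay upstream, so the windows were not alike. Over the replicates the shares were 53.0% ± 4.01 for pairs and 13.6% ± 2.54 for the genes outside (SD, n = 3 each). The share was highest where the starts were 201 to 300 bp (63.7%) and 301 to 400 bp apart (62.8%), lower at 1 to 100 bp (43.1%) and 101 to 200 bp (45.1%), and 25.0% of the 672 pairs 501 to 1000 bp apart. Above 500 bp both starts lie outside the window, so summits close to a start are not counted there and that share is lower in part by construction. Histone genes, which occur in repeated copies that are hard to map, made up 46 of the 1995 pairs, and 4 of the 46 carried a peak.

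**Figure D3:**
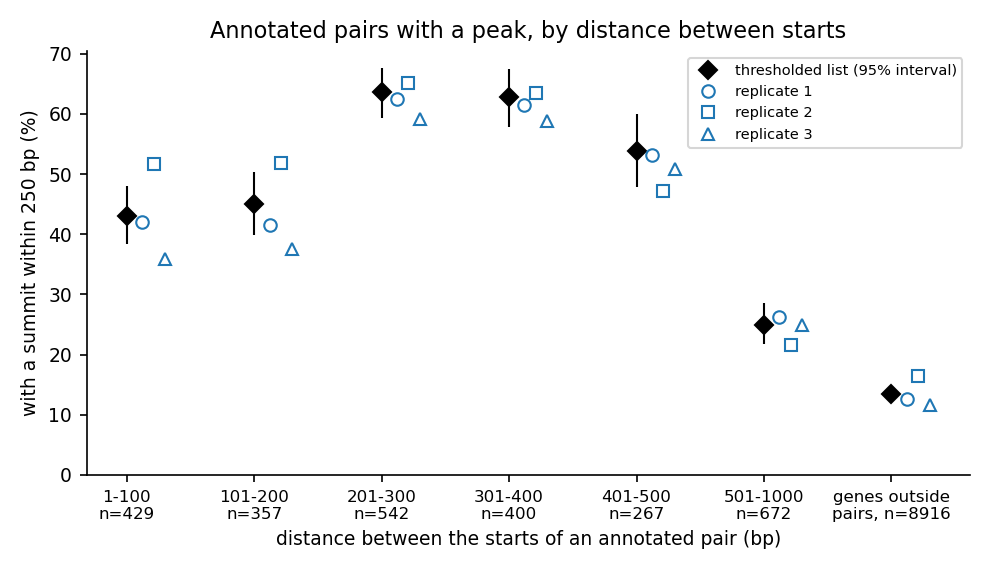
Share of annotated divergent pairs with a summit within 250 bp of their midpoint (%, y axis), by the distance between the starts (bp, x axis). At the right are genes outside pairs up to 1000 bp apart, with a summit within 250 bp of a start. Diamonds with exact 95% intervals are the thresholded list and open symbols the 3 replicates; the share is 63.7% at 201 to 300 bp, 25.0% at 501 to 1000 bp, where the starts themselves lie outside the window, and 13.5% for genes outside pairs.

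By the rule of the members, a summit within 500 bp of both starts, 1120 of the 1995 annotated pairs (56.1%) carried a thresholded peak and 875 did not. Of the 875, 249 had a peak of the pooled list with a q-value of 0.05 or less that was not in the thresholded list.

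The strongest divergent peak lay at Chro/Ssl1, with a signal of 5659. Chro is a chromosomal protein that joins the spindle matrix in mitosis, and Ssl1 is a subunit of the transcription and repair factor TFIIH. Its summit (3L, 22878895) was 89 bp inside Chro and 194 bp from the start of Ssl1, and it ranked 5, 12 and 5 in replicates 1, 2 and 3 among the 6966 thresholded peaks that each full replicate list contained. Next came Art3/mRpS10 (signal 5256, ranks 6, 16 and 7), and Tcs5/CHMP2B (5120, ranks 8, 19 and 6). At both the summit lay near the middle, 114 and 143 bp from the starts of Art3 and mRpS10 and 105 and 119 bp from those of Tcs5 and CHMP2B. Herp/r2d2 followed with a signal of 4775 and was the highest-ranked of the 10 in replicate 2, where it ranked 4, against 24 and 19 in replicates 1 and 3. Its summit was 72 bp from the start of Herp and 17 bp from that of r2d2.

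The other members of the strongest 10 were at mRpS23/CenG1A (4477), CG5611/Mtl (3931), Atat/Shc (3718), Fbw5/CG9147 (3578), tank/CG12194 (3541) and mRpL23/CG9004 (3411). They include 2 further mitochondrial ribosomal proteins, an Arf GTPase-activating protein (CenG1A) and an F-box protein (Fbw5). Their replicate ranks ran from 13 to 65, and each of the 10 was within the first 65 peaks of each replicate. The summit lay between the starts at 6 of the 10, and at 71 of the 100 strongest divergent peaks. None of the 10 held the UPR element within 50 bp of the summit.

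Among genes of the secretory pathway, members of several machineries shared their promoter region, and the peak, with a gene outside the secretory and ER stress lists. Of all protein-coding genes, 2329 (16.7%) belonged to the pair of a divergent peak. In ERAD, which extracts and degrades misfolded ER proteins, 7 of 13 did: Edem1, Edem2, Faf2, Herp, Hrd3, Ufd1 and sip3. Of the genes for the translocon and for signal peptide processing 10 of 19 did, among them Sec61alpha and Sec61gamma of the channel and the signal recognition particle proteins Srp14, Srp19, Srp54k, Srp68 and Srp72. N-glycosylation had 11 of 26, including the oligosaccharyltransferase subunits Dad1, Ost48, Ostgamma, Stt3A and Stt3B. Transport by COPII, COPI and p24 proteins had 21 of 41, including the coat proteins Sec13, Sec23, alphaCOP, beta'COP, epsilonCOP and zetaCOP and the SNAREs Membrin, Syx5 and Ykt6. These shares lay between 42.3% and 53.8%, against 16.7% of all genes.

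Genes of these lists were also more often arranged in pairs, whether or not a peak was there. In the annotation 61.5% of the ERAD genes, 52.6% of the translocon list, 57.7% of the N-glycosylation list and 58.5% of the transport list were in a pair, against 27.3% of all protein-coding genes. Of the paired members, 7 of 8, 9 of 10, 10 of 15 and 21 of 24 carried a promoter peak, beside 2233 of 3815 paired genes overall. ER chaperones and folding factors were less often in pairs (29.2%): 7 of 24 were at a divergent peak, namely ERp44, ERp60, GCS2beta, Manf, Uggt, sel and shv, while 14 of the 17 outside pairs carried a promoter peak there, beside 2009 of 10153 genes outside pairs (19.8%). Of 10 ER stress signalling genes 1, the sensor Ire1 (signal 910), was at a divergent peak, and of 6 nucleotide-sugar transporters 1, Papst2 (197). Phospholipid and sterol genes had 6 of 19, including the phosphatidylserine synthase Pss and Pcyt1, an enzyme of phosphatidylcholine synthesis.

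Other widely used genes had shares of 31.2% to 53.4%. Mitochondrial ribosomal proteins had 39 of 73 at a divergent peak (53.4%, with 72.6% in annotated pairs), aminoacyl-tRNA synthetases 14 of 32 and RNA polymerase and general transcription factors 33 of 82. Cytosolic ribosomal proteins had 35 of 93, DNA replication and repair genes 17 of 49 and proteasome subunits 15 of 48. All of these lists were drawn by symbol pattern and do not hold every member of the family. For example, the helicase subunit gene dpa and the synthetase gene GluProRS are at divergent peaks but in no list. These lists too were more often in annotated pairs, at 39.8% to 72.6% against 27.3% of all protein-coding genes. Of the paired members, 38 of 53 mitochondrial ribosomal, 13 of 20 synthetase and 33 of 51 polymerase and transcription factor genes carried a promoter peak. For cytosolic ribosomal, replication and proteasome genes it was 32 of 37, 13 of 26 and 14 of 24, beside 2233 of 3815 paired genes overall. Genes used in particular cells or stages were rare at divergent peaks. No embryonic patterning gene of 38 was at one, and 1 of the 38 is in an annotated pair. Of 179 chemoreceptor genes, 2 were, Gr63a and Ir60e, and 16 are in pairs.

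**Figure D4:**
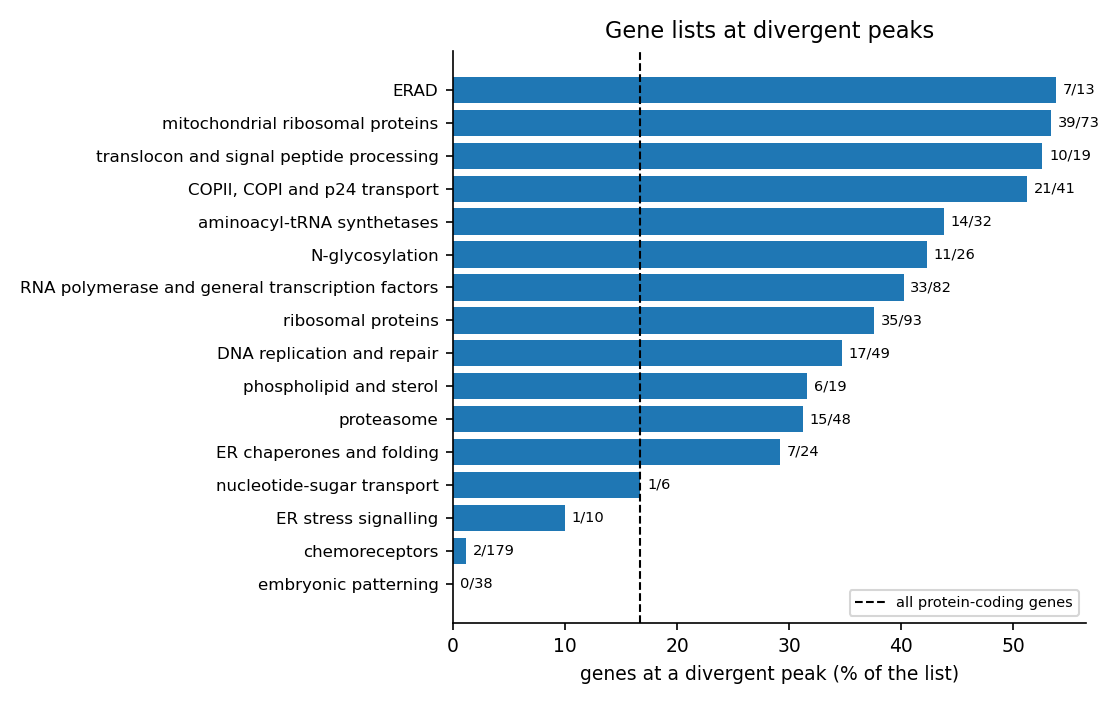
Share of each gene list that belonged to the pair of a divergent peak (%, x axis), with the count of genes beside each bar; the dashed line is the 16.7% of all protein-coding genes. The highest bars are ERAD (7 of 13), mitochondrial ribosomal proteins (39 of 73), the translocon list (10 of 19) and transport (21 of 41), and embryonic patterning has 0 of 38.

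The 7 lists of secretory and ER stress genes together accounted for 64 divergent peaks, and at none of them were both genes of the pair in these lists. The strongest after Herp/r2d2 was Hrd3/PTPMT1, with the partner of the ERAD ubiquitin ligase (signal 2453; ranks 74, 136 and 55 in replicates 1, 2 and 3), where the summit lay 327 bp inside Hrd3. It was followed by alphaCOP/CG13919 (2079; ranks 115, 133 and 133), CG10467/loj, with a p24 cargo receptor (1966; ranks 119, 234 and 105), and Stt3A/bves, with a catalytic subunit of the oligosaccharyltransferase (1924; ranks 182, 106 and 177). The last of these lay 397 bp upstream of Stt3A and within bves, whose start is 371 bp away. Of lower signal were GCS2beta/CG5131, with the regulatory subunit of glucosidase II (1700), Faf2/Grip71 (1617), Dad1/CG13384 (1205), Stt3B/CG11839 (1204) and CG8841/garz, with an Arf guanine nucleotide exchange factor of the early Golgi (1167).

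The peaks of crq/shv and SmB/KdelR differed most between replicates among the 12 strongest secretory pairs, going by the ratio of their ranks. That of crq/shv had signals of 481, 1139 and 273 and ranks of 533, 28 and 510 in replicates 1, 2 and 3. That of SmB/KdelR had signals of 412, 975 and 233 and ranks of 738, 46 and 685. Both carry an unfolded protein response motif at the summit, and both stood far higher in replicate 2. Ostgamma/Mettl14, the other secretory pair with the UPR element, ranked 1161, 169 and 966, and the last member with the element, CG17598/CG17600, ranked 6667, 2459 and 5771. Replicate 2 also ranked nero/CG1910 above the others did (4093, 3049 and 4598).

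The 64 secretory peaks were as strong as the rest of the class in the thresholded list, with a median signal of 417 beside 409. The ratio of these medians was 0.985, 1.29 and 0.915 in replicates 1, 2 and 3, so its direction depended on the replicate. The median rank of the 63 secretory divergent peaks found in all full replicate lists was 2416, 1762 and 2768, beside 2529, 2529 and 2430 for the other 1186. Replicate 2 gave 37 of the 63 (58.7%) their highest rank, and 419 of the 1186 (35.3%). This was not particular to secretory peaks, since 31 of 39 peaks of cytosolic ribosomal protein genes (79.5%) also ranked highest there. Of the peaks of mitochondrial ribosomal protein genes, 17 of 42 (40.5%) did.

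At these pairs the summit was more often nearer the secretory gene than its partner. It was so at 47 of 64 (73.4%, interval 60.9 to 83.7%), with median distances of 83.0 bp to the secretory start and 172 bp to the partner's. In the replicate lists the share was 68.0% ± 4.84 (SD, n = 3). The share varied between the secretory lists, and the translocon list had 6 of 11 (54.5%, interval 23.4 to 83.3%). DNA replication and repair genes had 11 of 16 nearer their own start (63.2% ± 6.97 over the replicates, SD, n = 3). Cytosolic ribosomal protein genes had 29 of 39 summits nearer their own start (72.2% ± 7.06 over the replicates, SD, n = 3). Mitochondrial ribosomal proteins had 17 of 42 (39.4% ± 2.36, SD, n = 3) and RNA polymerase and general transcription factors 14 of 36 (41.2% ± 4.39, SD, n = 3). The intervals of the secretory and mitochondrial ribosomal shares were apart in the thresholded list (60.9 to 83.7% and 25.6 to 56.7%) but overlapped in replicates 1 and 2 (54.0 to 78.7% and 26.3 to 57.9% in replicate 1). These intervals treat peaks as independent, although some pairs, such as Dad1/CG13384, carried more than 1, so they are no test of the difference.

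Motifs at the summits differed between divergent and single-gene promoter peaks, and all 11 were searched on both strands within 50 bp. The BEAF-32 core CGATA was at 421 of 1286 divergent summits (32.7%, interval 30.2 to 35.4%), against 25.8% of single-gene summits and 10.4% of distal ones; the difference between divergent and single-gene peaks was 7.05 ± 0.886 percentage points over the replicates (SD, n = 3). Flanks centred 500 bp to the left and right of the divergent summits held it in 11.0% and 10.7%, and 25.8% of all protein-coding starts did. The DRE, which contains that core, was at 6.69% of divergent, 4.80% of single-gene and 0.210% of distal summits, a difference of 2.55 ± 0.526 points (SD, n = 3), with 5.56% of all protein-coding starts. Motif 1, GGTCACACT, was at 2.49% of divergent and 1.79% of single-gene summits (0.890 ± 0.0743 points, SD, n = 3), less than the 4.36% of all starts. The word TATAAA was at 19.7% of divergent and 15.7% of single-gene summits (3.82 ± 1.29 points, SD, n = 3). It was in 6.22% and 4.59% of the divergent flanks, against 12.1% and 11.0% of the single-gene flanks. It was also at 22.2% of distal summits, 22.8% of all annotated pair midpoints and 17.0% of all starts. GAGAG, a site of the GAGA factor, was at fewer divergent (7.39%) than single-gene summits (10.7%), a difference of -3.41 ± 1.11 points (SD, n = 3). Each of these differences exceeded the SD between replicates, and each had an exact sign-flip p = 0.25, the smallest possible, so by this test none of the 11 motifs can pass 0.05. Among the midpoints of all annotated pairs, with or without a peak, 7.82% held GAGAG, 6.37% the DRE and 2.76% motif 1. These shares were close to those of divergent summits, and 11.5% of all starts held GAGAG. The BEAF-32 core was more frequent at divergent summits than at these midpoints (interval 25.1 to 29.0%). Whether the differences between divergent and single-gene peaks come from the arrangement in pairs was not tested. The median GC content of the summit windows was 34.7% at divergent and 37.6% at single-gene peaks. The part of base composition in the shares at summits was not tested.

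The UPR element was at 4 of 1286 divergent summits (0.311%, interval 0.0848 to 0.794%) and at 20 of 2127 single-gene summits (0.940%, interval 0.575 to 1.45%). Over the replicates the difference was -0.469 ± 0.0999 points (SD, n = 3; two-sided exact sign-flip permutation test, p = 0.25, the smallest possible), and the intervals of the 2 shares overlapped. Among all protein-coding starts 0.186% held it within 50 bp, and among the midpoints of the 1995 annotated pairs 0.201%. Its core ACGTGG, which the element contains, was at 2.18% of divergent and 3.06% of single-gene summits, beside 2.64% and 4.12% of the divergent flanks. The ER stress element was at 1 divergent summit and at none of the 2127 single-gene summits (upper bound 0.173%). For the remaining words the shares at summits were close: TGACGTCA was at 0.311% of divergent and 0.329% of single-gene summits, CACGTG at 1.40% and 1.18%, and CAGCTG at 5.91% and 5.59%.

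Divergent peaks with several of the motifs were weaker than those without. The ratio of median signal with over without the motif was 0.771 ± 0.0693 for the BEAF-32 core, 0.807 ± 0.113 for the DRE and 0.633 ± 0.0970 for motif 1 over the replicates (SD, n = 3 each). It was also below 1 for the E-box words, at 0.795 ± 0.0470 for CACGTG and 0.854 ± 0.0351 for CAGCTG (SD, n = 3 each). The CACGTG ratio rests on 14, 21 and 13 peaks with the word in replicates 1, 2 and 3. For TATAAA it was above 1, at 1.23 ± 0.0791 (SD, n = 3). In the thresholded list the 421 members with the BEAF-32 core had a median of 347 and the 865 without it 458, and at single-gene promoters the medians were 301 with the core and 348 without. Single-gene medians were also lower with the DRE (257 against 335), motif 1 (285 against 333) and CAGCTG (295 against 335). With CACGTG they were higher, at 353 against 332.

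Annotated pairs with and without a peak were compared at their midpoints, where the summit plays no part. The 2 groups differ in the distance between the starts. By the window of 250 bp, 43.1% of pairs 1 to 100 bp apart and 63.7% of those 201 to 300 bp apart had a peak. In pairs with close starts the motif window of 50 bp takes in the starts as well. The part of this distance in the shares below was not tested. TATAAA was within 50 bp of the midpoint of 25.7% of the 1120 pairs with a peak and 19.1% of the 875 without, and the difference was 6.30 ± 2.70 points over the replicates (SD, n = 3). GAGAG was at 7.23% of pairs with a peak and 8.57% of those without (-2.12 ± 0.274 points over the replicates, SD, n = 3). For the DRE the shares were 5.36% of pairs with a peak and 7.66% of those without, but the difference was -2.25, 1.25 and -2.72 points in replicates 1, 2 and 3, so its sign depended on the replicate. For the BEAF-32 core it was -4.12, -0.263 and -8.21 points. CAGCTG was at 5.98% of pairs with a peak and 10.2% of those without, with differences of -3.82, -1.89 and -4.27 points in replicates 1, 2 and 3. CACGTG was at 1.61% of pairs with a peak and 0.343% of those without (1.05 ± 0.274 points over the replicates, SD, n = 3). These shares rest on 18 and 3 pairs, and their intervals overlapped (0.955 to 2.53% and 0.0708 to 0.999%). Of all protein-coding starts, 1.98% held CACGTG.

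**Figure D5:**
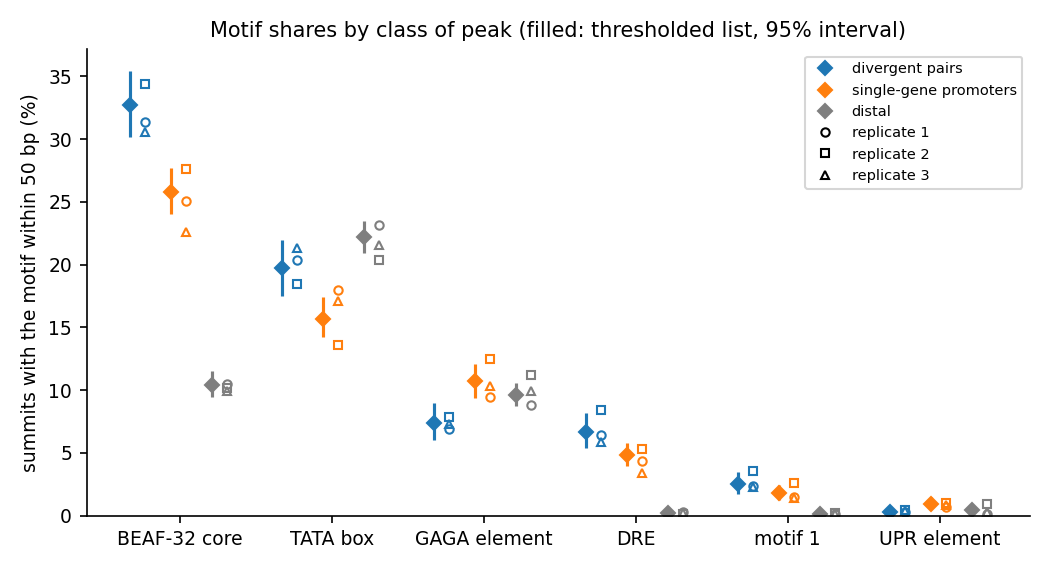
Share of summits with a motif within 50 bp (%, y axis) at divergent, single-gene and distal peaks, for 6 motifs (x axis); filled symbols with exact 95% intervals are the thresholded list and open symbols the 3 replicates. The BEAF-32 core is at 32.7% of divergent, 25.8% of single-gene and 10.4% of distal summits, and the UPR element is at 0.311%, 0.940% and 0.420%.

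Divergent peaks were found again in the replicates slightly more often than single-gene promoter peaks. The strongest 7291 peaks of replicates 1, 2 and 3 overlapped 94.7%, 92.9% and 88.6% of the divergent peaks, against 89.7%, 90.3% and 84.5% of the single-gene peaks. The divergent share was higher in each of the 3 replicates, while the means were 92.1% ± 3.12 for divergent and 88.2% ± 3.19 for single-gene peaks (SD, n = 3 each). These SDs describe the replicates of 1 class, and the spread of the difference within replicates was not computed. Median ranks among the 6966 peaks found in all full replicate lists, before these were cut to 7291, were 2522, 2495 and 2459 for divergent peaks, against 3355, 3054 and 3362 for single-gene peaks. The thresholded list was made from the same replicates, so this overlap is in part given by construction. Between replicates, the summit of a divergent peak moved by a median of 16.0 to 24.0 bp, and that of a single-gene peak by 15.0 to 21.0 bp.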

How the data were processed

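Xbp1-GFP ChIP-seq peak lists of 3 embryo replicates were used in the dm6 build. The authors called peaks against a control alignment, per the text files that accompany the deposited lists; which aligner and peak caller they ran is not given in the sources used here. Each deposited peak has 2 values from the authors, per the columns of the deposited lists: a signal of unstated scale and a −log10 q-value. The control itself was not analysed here.

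Summits were compared with starts of protein-coding genes in Ensembl BDGP6.54 (release 115) and with the Release 6 genome sequence. Replicate lists (21686, 30000 and 23357 peaks) were limited to their strongest 7291 for counts, shares and overlaps. The ranks, signals and summits that thresholded peaks had in a replicate came from its full list. A thresholded peak took the strongest overlapping replicate peak (1 bp or more) as its value there. Shares have Clopper-Pearson intervals. Ratios between classes were compared over replicates by exact two-sided sign-flip permutation. No p-value was computed over peaks or genes.

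The members, 16 gene lists, 11 motifs and alternatives were chosen with earlier results of these data known. Of the listed entries 181 matched by symbol, 21 by synonym and 22 nothing; ribosomal, proteasome, synthetase, polymerase, replication and receptor genes were listed by symbol pattern. Named peaks were the 10 strongest, the 12 strongest with a secretory or ER stress gene, those with the UPR element (up to 5), the 2 narrowest and 2 widest pairs, and 3 on each side of the 500 bp limit. Of the 8 pairs whose sequence the rule selects, the 5 with the summit between the starts are printed. The procedures were tested on simulated data. Python 3.11.15, NumPy 2.4.6, pandas 2.3.3, SciPy 1.17.1 and Matplotlib 3.10.9 were used.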

Additional observations from a re-analysis of the deposited data

How the results depend on the processing

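Both ratios stayed above 1 under each alternative run. The signal ratio of divergent over single-gene promoter peaks was between 1.07 (the stronger 3645 peaks) and 1.33 (promoter distance of 250 bp), and the ratio of bound shares between 2.02 (starts at most 250 bp apart) and 3.70 (the stronger 3645 peaks); without histone genes, an alternative added after seeing the data, it was 3.01. With a promoter distance of 250 bp the number of divergent peaks was 740 and the UPR element share 0.135%. With 1000 bp that share was 0.563% and 76.0% of summits lay between the starts. The stronger 3645 peaks held 811 divergent ones, and widening the motif window to 150 bp gave a UPR element share of 0.622% at divergent summits, against 1.32% at single-gene summits. The counts are lower by construction where the distance is shorter or the list is cut. Of 44 alternative values over the 5 results, 38 kept the direction of a ratio, came within 1.5 times the count, or moved a share by less than the SD between replicates, and the other 6 are the ones given here as counts and shares.

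Keeping only thresholded peaks overlapped by the equally long lists of both other replicates, and leaving out each replicate in turn, gave 1065 to 1136 divergent peaks, signal ratios of 1.15 to 1.17, bound share ratios of 3.14 to 3.27, 80.1 to 80.8% of summits between the starts and UPR element shares of 0.264 to 0.376%. The UPR element shares rest on few peaks, 4 of 1286 in the thresholded list and 8 of 1286 with the window of 150 bp. No paired analysis was possible because all samples belong to 1 group. Depth is unknown, and with 3 replicates the sign-flip test used cannot reach 0.05.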

Other observations

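Divergent peaks were spread over the chromosomes, with 245 on 2L, 249 on 2R, 265 on 3L, 355 on 3R, 5 on 4 and 167 on X. Of the annotated pairs of the X, 50.9% (147 of 289, exact 95% interval 44.9 to 56.8%) carried a peak, beside 53.3% of those of 2R, 53.9% of 2L, 58.9% of 3L and 60.5% of 3R (interval 56.3 to 64.7%). The interval of the X overlapped those of the 4 large autosomal arms. The median signal of divergent peaks was 318 on the X, 373 on 2R, 452 on 2L, 439 on 3L and 445 on 3R.

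Among the single-gene promoter peaks, 86 of 2127 (4.04%) had the start of a divergent non-coding RNA gene within 500 bp. Their median signal was 323, beside 333 for the other single-gene peaks.

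The 39 divergent peaks of cytosolic ribosomal protein genes had median ranks of 1558, 1050 and 1959 in replicates 1, 2 and 3, and 31 of them (79.5%) ranked highest in replicate 2. The 42 of mitochondrial ribosomal protein genes had median ranks of 3062, 3393 and 2950, and 17 of them (40.5%) ranked highest in replicate 2.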
